A study of Brassica rapa with 18 samples.

Results

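SUR1, UGT74B1 and SOT16 are the enzymes that finish the glucosinolate core, and 6 rows of the count table, of 42186 in all, were read for them in Brassica rapa leaves. The rows were chosen by identifier: Bra036490 and Bra036703 for SUR1, Bra024634 for UGT74B1, and Bra008132, Bra015935 and Bra015936 for SOT16. The gene names came with that choice; none of the 6 identifiers occurred in the RefSeq gene table of the species used here, so the names were not checked against an annotation. The plants were wild type (WT) seedlings of the inbred line R-o-18, which belongs to Brassica rapa var. trilocularis. At 10 days of age they were sprayed with 50 µM methyl jasmonate (MeJA), the methyl ester of the wound hormone jasmonic acid, or with a mock spray of water. Both sprays contained 0.1% Tween-20. Leaves were taken after 10 min, 24 h or 72 h, with 3 libraries for each spray and time and 18 in all. The labels call the 3 libraries biological replicates without saying how plants were pooled. If they were repeat libraries of the same pool, the p-values below measure technical spread only. If their plants were grown together, spread between separate growings is not covered.

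Glucosinolates are the sulfur-rich defence compounds of the cabbage family, released as mustard oils when tissue is damaged. As known from Arabidopsis thaliana, SUR1 is the C-S lyase that cleaves the sulfur conjugate of an activated aldoxime to a thiohydroximate. UGT74B1 then adds glucose to that sulfur, and SOT16 adds the sulfate group that completes the molecule. SUR1 and UGT74B1 serve glucosinolates made from tryptophan as well as those made from methionine, whereas SOT16 is known for preferring the tryptophan and phenylalanine products. Jasmonates are known to raise glucosinolates derived from tryptophan in leaves of this family.

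Library totals ran from 13505607 to 17796115 counts. Levels are given as CPM, read counts scaled to a common library size with TMM factors. They were not compared between genes because gene lengths were not used here. Replicates were compared in pairs by chi-square per degree of freedom, over genes with at least 10 counts in the 2 libraries together. MeJA 10 min replicate 2 stood apart from its group, at 25.0 against replicate 1 and 24.5 against replicate 3. Replicates 1 and 3 differed from each other by 6.25. The MeJA 24 h libraries were also far apart, at 13.3 to 26.9. Mock 10 min replicates 2 and 3 were the closest pair at 1.49. This was above counting noise but below the 4.90 or more of the other 17 pairs, and they were kept as separate replicates. Whether these 2 came from separate plants is not given. If they did not, comparisons with mock 10 min rest on fewer separate samples. Each spray comparison lies within 1 value of the batch field of the labels, which coincides with time.

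The 6 rows held 0.0287% to 0.0305% of all counts in the mock libraries of 10 min and 0.0428% to 0.0830% in the MeJA libraries. At 24 h these shares were 0.0258% to 0.0311% with mock and 0.0759% to 0.107% with MeJA. At 72 h they were 0.0186% to 0.0213% and 0.0387% to 0.0524%. The MeJA and mock ranges did not overlap at any time. Of single tested features, 14.6% at 10 min, 19.4% at 24 h and 16.4% at 72 h had every MeJA library above every mock library in CPM. The summed share is weighted to the rows with the most counts, so it does not speak for each row. In leaf tissue as a whole, a change in the number of cells of a type and a change in RNA per cell cannot be told apart.

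**Figure D1:**
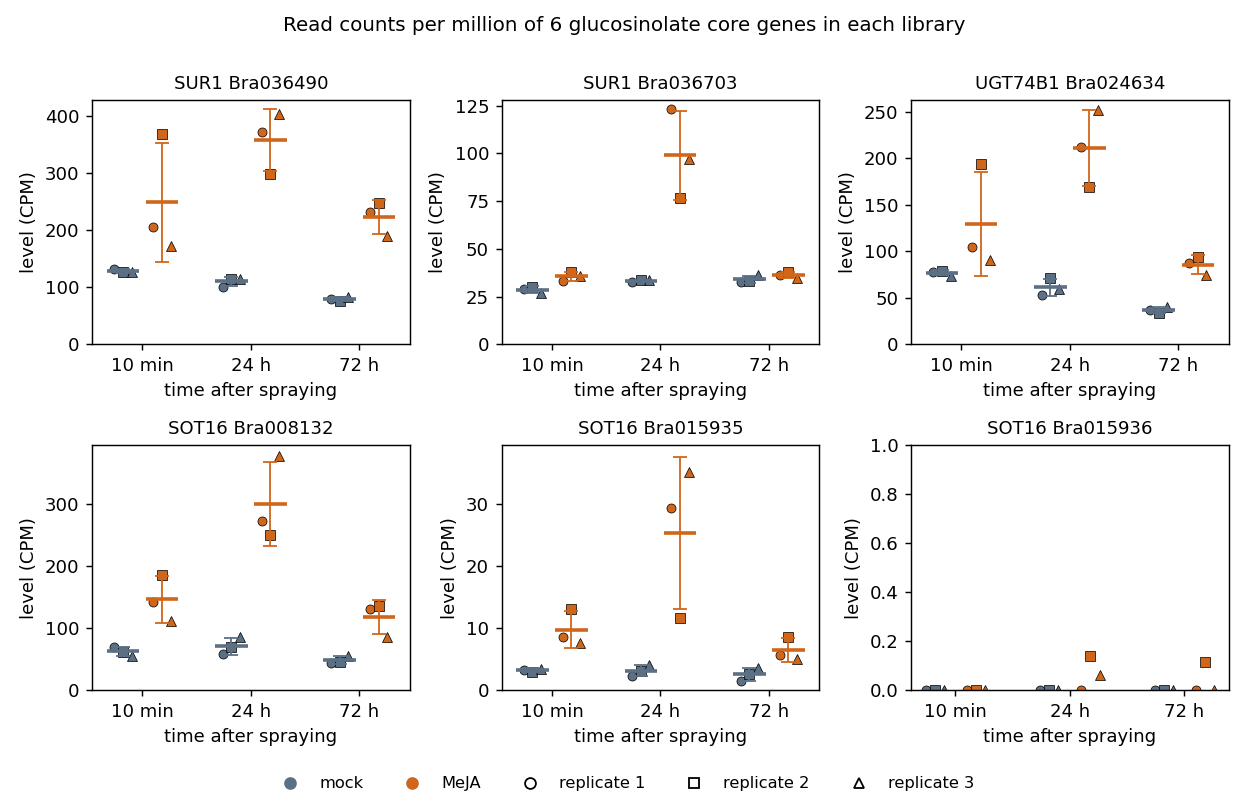
Level in CPM (vertical axes, from 0, a scale for each gene) of the 6 genes by time after spraying, with mock in grey-blue and MeJA in orange. Symbols are libraries, horizontal lines are means of 3, and error bars are the SD (neither drawn for Bra015936). MeJA lay above mock at every time in 4 genes, Bra036703 overlapped at 72 h, and Bra015936 reached at most 0.140 CPM. Of all tested features, 14.6% at 10 min, 19.4% at 24 h and 16.4% at 72 h had every MeJA library above every mock library.

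The SUR1 gene Bra036490 was higher with MeJA at all 3 times. At 10 min it measured 207, 368 and 173 CPM in MeJA replicates 1, 2 and 3, against 133, 127 and 126 CPM in mock. At 24 h the values were 372, 299 and 404 CPM with MeJA and 101, 115 and 115 CPM with mock. At 72 h they were 232, 248 and 191 CPM with MeJA and 78.8, 75.8 and 83.4 CPM with mock. The MeJA libraries thus lay above all mock libraries of their time, and replicate 2 was far the highest at 10 min. The log2 fold change was 0.95 at 10 min (SE 0.20; adjusted p = 0.00956 by edgeR with the Benjamini-Hochberg method), 1.70 at 24 h (SE 0.20; adjusted p = 9.07e-06) and 1.49 at 72 h (SE 0.20; adjusted p = 0.000300). These amounted to 1.94-fold, 3.25-fold and 2.82-fold. Without MeJA 10 min replicate 2 the log2 value at 10 min was 0.56 (edgeR adjusted p = 0.0385), and the call was lost without mock replicate 2 or 3 (adjusted p = 0.0538 and 0.0516) and with only the 10 min libraries in the fit (0.0535).

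The other SUR1 gene, Bra036703, was called higher at 24 h and at neither other time. It stood at 33.3, 37.9 and 35.8 CPM with MeJA at 10 min and at 29.2, 30.3 and 26.7 CPM with mock. At 24 h it reached 123, 76.5 and 97.2 CPM with MeJA, against 32.9, 33.5 and 33.6 CPM with mock. By 72 h it was at 36.2, 37.8 and 34.8 CPM with MeJA and 32.7, 33.1 and 36.4 CPM with mock. The groups were separate at 10 min and 24 h and overlapped at 72 h. The log2 fold change at 24 h was 1.57 (SE 0.12; edgeR adjusted p = 1.97e-07), or 2.97-fold. It was 0.31 at 10 min (95% interval 0.05 to 0.58; adjusted p = 0.148) and 0.09 at 72 h (95% interval -0.17 to 0.35; adjusted p = 0.697).

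UGT74B1, the glucosyltransferase, was read from 1 row, Bra024634. At 10 min it measured 104, 194 and 90.8 CPM with MeJA and 78.3, 78.5 and 74.0 CPM with mock. At 24 h the levels were 212, 169.5 and 252 CPM with MeJA and 52.8, 71.0 and 60.0 CPM with mock. At 72 h they were 87.4, 94.3 and 74.3 CPM with MeJA and 37.4, 34.0 and 40.2 CPM with mock. No MeJA library reached down to its mock group, but at 10 min replicates 1 and 3 were close to it. The log2 fold change was 1.78 at 24 h (SE 0.22; edgeR adjusted p = 1.22e-05), which is 3.44-fold, and 1.20 at 72 h (SE 0.22; adjusted p = 0.00275), which is 2.29-fold. At 10 min it was 0.75 (SE 0.21; adjusted p = 0.0405). It did not pass in 6 of the 12 alternatives: without MeJA replicate 2 (log2 0.34, adjusted p = 0.285), without mock replicate 1, 2 or 3 (adjusted p = 0.0881, 0.119 and 0.138), with the replicate number as a block (0.0598) and with only the 10 min libraries in the fit (0.102).

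Among the SOT16 rows, the sulfotransferase gene Bra008132 was higher with MeJA at every time. It stood at 143, 186 and 111 CPM with MeJA at 10 min and at 70.1, 60.9 and 55.6 CPM with mock. The levels of 24 h were 273, 251 and 379 CPM with MeJA and 57.5, 69.9 and 84.8 CPM with mock. Those of 72 h were 131, 135 and 86.0 CPM with MeJA and 43.2, 45.9 and 55.6 CPM with mock. The groups were separate at each time. The log2 fold change was 1.24 at 10 min (SE 0.21; edgeR adjusted p = 0.00415), 2.09 at 24 h (SE 0.21; adjusted p = 2.47e-06) and 1.28 at 72 h (SE 0.21; adjusted p = 0.00137). In fold these were 2.36, 4.25 and 2.44. All 3 calls held in each of 13 alternatives, and without MeJA 10 min replicate 2 the first was 1.03 (adjusted p = 0.0223).

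Bra015935, also SOT16, had the largest fold change of the 5 tested genes at 10 min and 24 h, on far fewer counts. Its counts in MeJA and mock libraries ran from 25 to 571. The levels at 10 min were 8.48, 13.1 and 7.52 CPM with MeJA and 3.30, 2.88 and 3.44 CPM with mock. At 24 h they were 29.3, 11.6 and 35.2 CPM with MeJA and 2.30, 3.06 and 4.00 CPM with mock. At 72 h they were 5.62, 8.57 and 4.99 CPM with MeJA and 1.46, 2.50 and 3.58 CPM with mock. Again the groups did not overlap, and MeJA 24 h replicate 2 was much lower than the other MeJA libraries of its time. The log2 fold change was 3.03 at 24 h (SE 0.37; edgeR adjusted p = 1.36e-05), an 8.16-fold difference. At the earliest time it was 1.60 (SE 0.38; adjusted p = 0.0184), and 1.35 at 72 h (SE 0.39; adjusted p = 0.0374). The call at 10 min was lost without MeJA replicate 2 (log2 1.32, adjusted p = 0.114) and without mock replicate 1, 2 or 3 (adjusted p = 0.0502, 0.0885 and 0.0704), and the one of 72 h when MeJA replicate 1 or 2 (0.0702 and 0.164) or mock replicate 1 or 2 (0.138 and 0.101) was left out.

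Bra015936, the remaining SOT16 row, had almost no counts. It had 0 counts in every mock library and in the MeJA libraries of 10 min. In MeJA 24 h it had 2 counts in replicate 2 and 1 in replicate 3, and in MeJA 72 h it had 2 counts in replicate 2. A library at 0 allows a level of up to 0.172 to 0.217 CPM, the worth of 3 counts, which covers counting error only. No group exceeded 3 counts, so no fold is given, and a response was not detectable in these counts. Whether reads shared with other SOT16 copies are missing from this row was not tested. It did not pass the filter on low counts, which the other 5 genes passed with at least 25 counts in every library.

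Of the 6 genes, 5 were tested. At 10 min 4 of them were called higher with MeJA and none lower, where 4.69% of all 26593 tested features were called higher. At 24 h all 5 tested genes were called higher, where 15.4% of features were. At 72 h 4 were called higher, where 6.11% of features were. The median log2 fold change of the 5 genes was 0.95, 1.78 and 1.28 at the 3 times, and that of all features was -0.01, -0.01 and -0.03. Without MeJA 10 min replicate 2, 2 of the 5 genes were called at 10 min, both higher: Bra036490 and Bra008132. Features called higher fell with it, from 1248 to 336. Leaving out a mock library of 10 min left 2 calls for replicate 1 and 1 call each for replicates 2 and 3, where 893, 279 and 336 features were called higher.

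Every MeJA library lay above every mock library for 5 genes at 10 min, 5 at 24 h and 4 at 72 h. Over all tested features the same held for 14.6%, 19.4% and 16.4%. At 24 h, 1.05% of all tested features had a larger log2 fold change than Bra015935, 1.99% a larger one than Bra008132, and 3.34% a larger one than Bra036703, the lowest of the 5. At 72 h the corresponding share was 1.97% for Bra036490 and 34.6% for Bra036703.

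**Figure D2:**
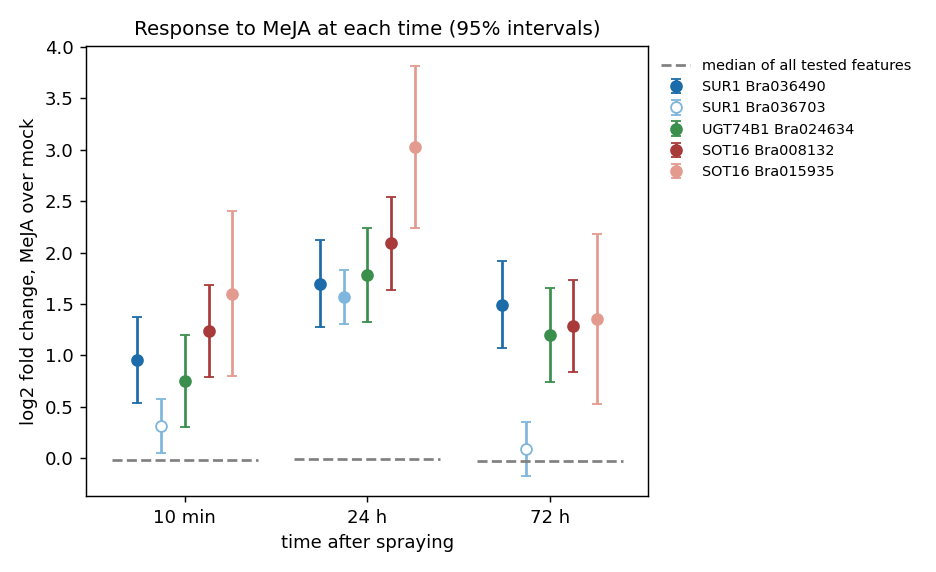
Log2 fold change of MeJA over mock (vertical axis) by time for the 5 tested genes; bars are 95% intervals, filled symbols are calls at an adjusted p under 0.05, open symbols are not, and dashed lines mark the median of all tested features. All 5 genes are highest at 24 h, and Bra036703 is near 0 at 72 h with an interval of -0.17 to 0.35.

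**Figure D3:**
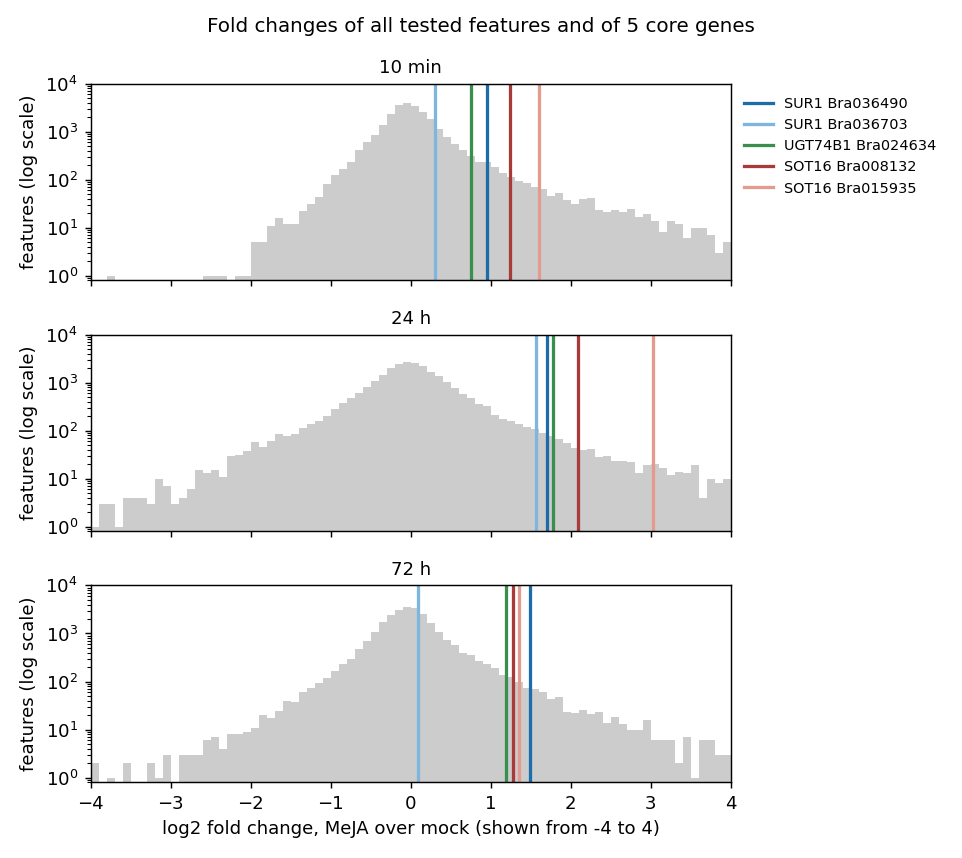
Number of tested features (log axis) in bins of log2 fold change, MeJA over mock, at each time; coloured lines mark the 5 genes and the axis is limited to the range -4 to 4. At 24 h the lines stand between 1.57 and 3.03, and at 72 h Bra036703 stands at 0.09 while the other 4 lie between 1.20 and 1.49.

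The response was larger at 24 h than at 10 min in the fitted values of all 5 genes, but this difference passed the test in 1 of them. Times coincide with plant age and with the batch field of the labels. Response differences between times therefore cannot be told apart from effects of either. For Bra036703 the log2 response at 24 h exceeded that at 10 min by 1.26 (SE 0.18; edgeR interaction test, adjusted p = 0.000831), where 2.01% of features were called in that direction. The other 4 differences ran from 0.74 for Bra036490 (95% interval 0.16 to 1.33) to 1.43 for Bra015935 (0.31 to 2.55), with edgeR adjusted p from 0.0714 to 0.167. All 5 had an unadjusted p under 0.05, and DESeq2 called 2, the second being UGT74B1, where it called 834 features higher against 535 by edgeR. Without MeJA 10 min replicate 2, 4 were called, with differences of 1.14 for Bra036490, 1.31 for Bra036703, 1.44 for UGT74B1 and 1.06 for Bra008132, and 886 features were called higher. Without MeJA 24 h replicate 2, 3 were called: Bra036703, UGT74B1 (1.14) and Bra015935 (1.75), with 807 features called higher.

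From 24 h to 72 h the response of Bra036703 fell by 1.48 on the log2 scale (SE 0.17; edgeR adjusted p = 0.000473), where 1.17% of features were called in that direction. Bra036490, the other SUR1 gene, differed by -0.20 (95% interval -0.79 to 0.38; adjusted p = 0.793). UGT74B1 differed by -0.59 (95% interval -1.22 to 0.05; adjusted p = 0.370), Bra008132 by -0.80 (-1.42 to -0.18; 0.185) and Bra015935 by -1.67 (-2.82 to -0.53; 0.133). The last of these was called by DESeq2 (log2 -1.66, adjusted p = 0.0383) and without MeJA 24 h replicate 2 (-1.98, edgeR adjusted p = 0.0170).

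Between 10 min and 72 h no response difference was called by edgeR in the 5 genes, nor by DESeq2 in the 4 for which it gave an adjusted p (not Bra015935), and 0 of the 5 had an unadjusted p under 0.05, where 0.301% of all features were called. The differences ran from -0.25 for Bra015935 (95% interval -1.41 to 0.92) to 0.54 for Bra036490 (-0.04 to 1.12). Without MeJA 10 min replicate 2 the latter was 0.93 (edgeR adjusted p = 0.0243).

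In mock leaves, levels of some of these genes also differed between times, which coincide with plant age and with the batch field of the labels and cannot be told apart from them. From 10 min to 72 h, UGT74B1 fell by 1.05 on the log2 scale (SE 0.22; edgeR adjusted p = 0.00342), from 76.9 ± 2.56 to 37.2 ± 3.09 CPM (SD, n = 3). The SUR1 gene Bra036490 fell by 0.70 (SE 0.20; adjusted p = 0.0206), from 129 ± 3.64 to 79.3 ± 3.86 CPM. These were 2 of 5 genes, where 10.6% of features were called lower. The call of Bra036490 did not hold when replicate 1 or 2 of mock 10 min was left out (adjusted p = 0.0563 and 0.0506), nor without the second mock library of 72 h (0.0637), and with only these 6 libraries in the fit 3 genes were called lower and 1 higher, where 3982 features were called lower and 3516 higher, against 2811 lower with all 18 libraries. Bra036703 leaned the other way, from 28.7 ± 1.84 to 34.1 ± 2.01 CPM, with a log2 difference of 0.24 (95% interval -0.02 to 0.51; adjusted p = 0.181).

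From 10 min to 24 h in mock, edgeR and DESeq2 called 0 of the 5 genes and none had an unadjusted p under 0.05, where 6.25% of features were called. From 24 h to 72 h edgeR called 0, where 3.65% of features were called, although 3 had an unadjusted p under 0.05. DESeq2 called 1, UGT74B1 (log2 -0.73, adjusted p = 0.0218), among 1616 features.

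The 6 groups were also put in order of mean level for each tested gene. Bra036490 went from 358 ± 53.6 CPM (SD, n = 3) in MeJA 24 h through 249 ± 104.5 in MeJA 10 min, 223 ± 29.7 in MeJA 72 h, 129 ± 3.64 in mock 10 min and 110.4 ± 7.82 in mock 24 h to 79.3 ± 3.86 in mock 72 h. Its 3 MeJA groups overlapped with their neighbours in this order, whereas MeJA 72 h and the 3 mock groups were all separate from each other. UGT74B1 had the same order, from 211 ± 41.0 CPM in MeJA 24 h to 37.2 ± 3.09 CPM in mock 72 h. Its level in MeJA 72 h, 85.3 ± 10.2 CPM, overlapped with that in mock 10 min, 76.9 ± 2.56 CPM, and the 3 mock groups were separate.

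For Bra036703, MeJA 24 h (99.0 ± 23.5 CPM; SD, n = 3) was apart from all others, MeJA 72 h, MeJA 10 min, mock 72 h and mock 24 h overlapped as neighbours between 36.3 and 33.3 CPM, and mock 10 min was lowest at 28.7 ± 1.84 CPM. For Bra008132, MeJA 24 h (301 ± 68.4 CPM) was separate, MeJA 10 min (147 ± 37.7 CPM) and MeJA 72 h (117 ± 27.4 CPM) overlapped, and the 3 mock groups followed at 70.7 ± 13.7, 62.2 ± 7.34 and 48.2 ± 6.50 CPM in the order 24 h, 10 min and 72 h, overlapping as neighbours. Bra015935 went from 25.4 ± 12.3 CPM in MeJA 24 h through 9.70 ± 2.98 in MeJA 10 min to 6.39 ± 1.91 in MeJA 72 h, overlapping as neighbours. Its mock groups, at 3.20 ± 0.289, 3.12 ± 0.852 and 2.51 ± 1.06 CPM, overlapped with each other and lay below.

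In each MeJA group at least 1 replicate was the highest or the lowest in all 5 tested genes. How many of all features share these ranks was not counted. Replicate 2 of MeJA 10 min was the highest of its group in all 5 tested genes, from 1.14 times the lowest library for Bra036703 to 2.13 times for UGT74B1 and Bra036490. Replicate 2 of MeJA 24 h was the lowest of its group in all 5, with the highest library 1.35 times it for Bra036490 and 3.02 times for Bra015935. Replicate 3 of MeJA 72 h was likewise the lowest in all 5. Bra036703 departed at the opposite extremes, where replicate 1 was its lowest in MeJA 10 min and its highest in MeJA 24 h. The other genes had replicate 3 in both places. Whether these differences lay in the plants or in the libraries was not tested.

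Averaged over the 3 times, the SUR1 genes changed unequally with MeJA. The ratio of Bra036490 to Bra036703 was higher with MeJA by a mean of 0.70 on the log2 scale over the 3 times (exact permutation test of the labels within each time, two-sided, 8000 arrangements, p = 0.00200; 0.00800 adjusted over 4 pairs of copies). Leaving out each library in turn gave 0.61 to 0.78. The change was 0.57 at 10 min, 0.15 at 24 h and 1.40 at 72 h. At a single time the exact test has 20 arrangements and cannot go below 0.100. Its p-value was 0.100 at 10 min and at 72 h, and 0.4 at 24 h. Library scaling cancels in this ratio.

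Seen as a share, Bra036703 made up 18.0%, 19.3% and 17.5% of the SUR1 counts in mock 10 min and 13.9%, 9.32% and 17.1% in MeJA 10 min. At 24 h its share was 24.5%, 22.5% and 22.6% with mock and 24.9%, 20.4% and 19.4% with MeJA, which overlapped. At 72 h it was 29.4%, 30.4% and 30.4% with mock and 13.5%, 13.2% and 15.4% with MeJA. The mock share was thus higher at each later time without overlap, and the widest gap between sprays was at 72 h. The rise in mock was not tested, and time coincides with plant age and with the batch field. How many other pairs of copies shift in this way was not counted.

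For SOT16 the ratio of Bra008132 to Bra015935 was lower with MeJA by a mean log2 of -0.43 (exact permutation test, p = 0.0345, adjusted over the 4 pairs 0.0345). Bra015935 made up 4.94% ± 0.764 of the SOT16 counts in mock 10 min and 6.18% ± 0.509 in MeJA 10 min (SD, n = 3), 4.18% ± 0.330 and 7.54% ± 2.75 at 24 h, and at 72 h 4.83% ± 1.42 with mock and 5.18% ± 0.957 with MeJA. Sprays overlapped in range at every time. This call was lost without MeJA 24 h replicate 1 or 3, MeJA 72 h replicate 2 or 3, any of the mock 24 h libraries or the first mock library of 72 h (adjusted p from 0.05 to 0.0890), and with 5 counts added to each value (0.0778). The other pairs of SOT16 set a gene against Bra015936, whose counts of 0 to 2 leave the ratio to the added 0.5 counts, and nothing is read from them.

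**Figure D4:**
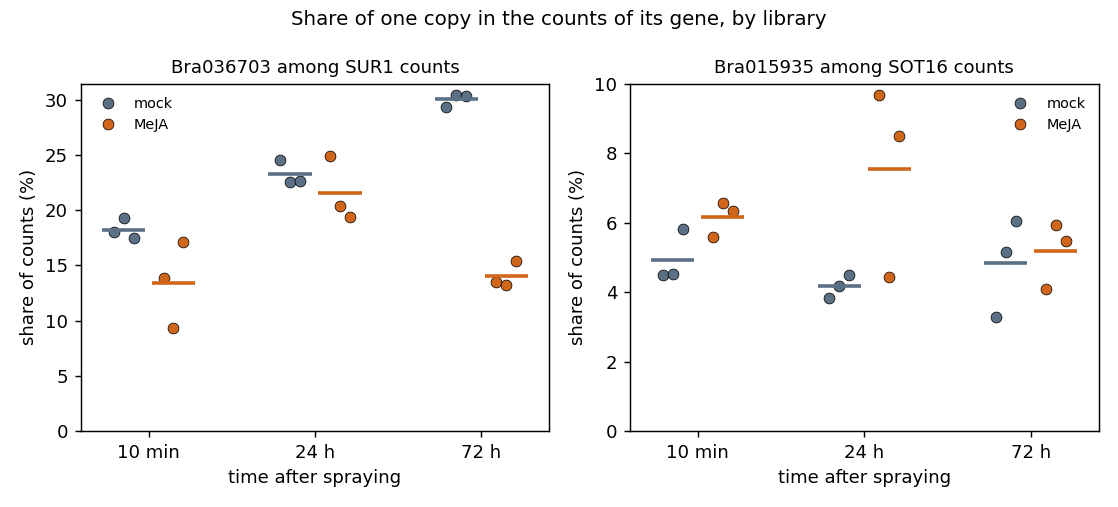
Share in percent (vertical axes, from 0) of Bra036703 in the counts of the SUR1 rows and of Bra015935 in those of the SOT16 rows, by time and spray. Points are libraries and lines are means of 3. The share of Bra036703 is 29.4% to 30.4% in mock 72 h and 13.2% to 15.4% in MeJA 72 h, while the SOT16 shares of the sprays overlap at each time.

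How reads shared by copies were counted is not given, so the copies were also summed and fitted as 1 row per gene. The sum covers reads that were split between rows, but not reads that were left uncounted. Summed SUR1 was higher with MeJA by a log2 of 0.86 at 10 min (SE 0.18; edgeR adjusted p = 0.0105), 1.67 at 24 h (SE 0.18; adjusted p = 4.54e-06) and 1.20 at 72 h (SE 0.18; adjusted p = 0.000807). Summed SOT16 was higher by 1.26 (SE 0.22; adjusted p = 0.00422), 2.14 (SE 0.22; adjusted p = 2.38e-06) and 1.29 (SE 0.22; adjusted p = 0.00154). No response difference between times was called for a summed gene; for SUR1 from 10 min to 24 h it was 0.81 (adjusted p = 0.0923). In the sum, the SUR1 difference in mock from 10 min to 72 h was -0.47 (adjusted p = 0.0736), so the call of Bra036490 was not kept.

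The 5 tested genes were compared by the root mean square (RMS) difference of their 6 group means of log2 CPM, each centred on its own mean. The SUR1 gene Bra036490 was nearer to UGT74B1 (RMS 0.22) and to the SOT16 gene Bra008132 (0.25) than to its own copy Bra036703 (0.52). The SOT16 genes Bra008132 and Bra015935 were 0.25 apart. Among 23989 other features with a mean of at least 1 CPM, the nearest to Bra036490 were Bra018543 (RMS 0.0860) and Bra022448 (0.115). Both were closer to it than UGT74B1 or Bra008132. How many features in all were closer than UGT74B1 or Bra008132 was not counted. The nearest to Bra036703 were Bra015481 (0.0477) and Bra006547 (0.0641), and to UGT74B1 Bra004550 (0.137) and Bra015938 (0.143). For Bra008132 they were Bra010835 (0.0823) and Bra022815 (0.0908), and for Bra015935 they were Bra004518 (0.130) and Bra001921 (0.185). Over the 18 libraries in place of the group means, Bra022448 and Bra015938 were again among the nearest of their gene and the other 8 were replaced. The identifiers are not paired with names in the files, so these genes, and the other genes of the glucosinolate pathway, are not described further.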

How the data were processed

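The deposited values are raw read counts per gene in 18 libraries; per the submitters' processing notes, FastQC, TopHat2, HTSeq and edgeR were used, with no role or version given. The genome build, the annotation and whether counting used strand are each not given in the sources used here, so counts of near-identical copies and overlapping genes are uncertain. Per the labels' protocols the mRNA libraries were stranded and paired-end. Features were filtered with filterByExpr on the 6 groups (26593 of 42186 kept), scaled by TMM and fitted with edgeR 4.0.16 in R 4.3.3 (glmQLFit, 6 group means, all 18 libraries); Benjamini-Hochberg adjustment ran over all tested features, and calls are at 0.05. SE is the log2 fold change over the root of F. Log2 CPM used a prior count of 2, and copy ratios an added 0.5. The procedure was tested on simulated counts. DESeq2 1.42.0 was an alternative. All value columns were used.

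The members, lists and tests were chosen with earlier results of these data known; the mock comparison of 72 h with 10 min was added after the counts were seen. All 6 identifiers were named by rule, with the 2 features of nearest pattern for each tested gene. Planned lists of other pathway genes and leaf markers could not be filled, since identifiers were not paired with names; the labelled tissue was thus not checked. Same-numbered MeJA and mock libraries of a time deviated together with a correlation over features of -0.21 to 0.29, above 0.1 in 2 of 9 pairs, so numbers were not taken as pairs.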

Additional observations from a re-analysis of the deposited data

Results flagged for a closer look

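For the SUR1 gene Bra036703 the effect of MeJA was not the same at all times, as tested on the difference itself. It was higher by 1.26 on the log2 scale at 24 h than at 10 min (edgeR adjusted p = 0.000831) and changed by -1.48 from 24 h to 72 h (edgeR adjusted p = 0.000473). Both calls held in 18 of 19 alternatives, the exception being the sum of both SUR1 rows. Time coincides with plant age and with the batch field of the labels, which cannot be told apart from it. With 3 libraries a group, outlying single values were not assessed.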

How the results depend on the processing

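Over all alternatives, 607 of 665 recomputed values of the 5 genes kept their direction and their side of the threshold, 23 lost a call, 17 gained one and 18 changed sign, none of the last a call. The counts at 24 h and 72 h stayed within 1.5 times under each alternative. The cause of the shifts was not tested. With only the libraries compared in the fit, 2 genes were called at 10 min, 2 in mock from 24 h to 72 h and 4 in mock from 10 min to 72 h, among 1246, 879 and 7498 features called. DESeq2 called 2 for each response step, 10 min to 24 h and 24 h to 72 h, and 1 in mock from 24 h to 72 h, among 1331, 961 and 1616 features. Library totals alone called 1 there, among 1720 features, and moved the median of all features to -0.13 at 24 h. With the replicate block 3 genes were called at 10 min, and all features called were 1475, 7279 and 2317 at the 3 times. Same-numbered libraries correlated best with each other in 4 of 9 cases.

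Leaving out single libraries gave 1 to 4 genes at 10 min, 1 to 4 for the response step to 24 h, 1 to 2 for that to 72 h, 0 to 1 for the response from 10 min to 72 h and 1 to 2 in mock from 10 min to 72 h. Features called in these settings ranged from 361 to 2766, 312 to 1584, 134 to 1025, 17 to 124 and 2976 to 4643. Leaving out libraries gave log2 ratios of -0.55 to -0.34 for Bra008132 to Bra015935, of 0.63 to 1.04 for Bra008132 to Bra015936 and of 0.98 to 1.59 for Bra015935 to Bra015936. The ratios to Bra015936 are set by the added 0.5 counts, so nothing is read from their ranges. With 5 added counts the ratio of Bra008132 to Bra015935 was -0.33.

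Sign changes touched uncalled values near 0. From 10 min to 72 h the response ran from -0.12 to 0.26 for Bra008132 and from -0.51 to 0.10 for Bra015935 when libraries were left out. In mock, Bra015935 ran from -0.25 to 0.14 between 10 min and 24 h, and was 0.033 with library totals. Bra036703 ran from -0.029 to 0.048 between 24 h and 72 h in mock, and was -0.067 with library totals. Summing copies replaced Bra036703 by SUR1 as a whole, at 0.34 for the response from 10 min to 72 h and at -0.13, -0.34 and -0.47 for the mock steps to 24 h, from 24 h to 72 h and from 10 min to 72 h. For SOT16 the sums were 0.032 for that response and 0.18 for mock from 10 min to 24 h. Low counts limit Bra015935, at 25 to 571 counts a library, and leave Bra015936 untested.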
